A study of Mus musculus with 15 samples.

Results

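A set of 9 oligodendrocyte genes was followed through postnatal development of the mouse auditory nerve: Mog, Mobp, Ermn, Opalin, Klk6, Olig1, Olig2, Nkx6-2 and Aspa. They were taken by gene symbol from the deposited expression table, where all 9 were present among 18536 genes, and all 9 passed the filter on low values. Bulk RNA sequencing had been done on nerves taken from the cochlea of mice aged 3 (P3), 7 (P7), 14 (P14) or 21 (P21) postnatal days or adult, with 3 libraries per age. Each library held RNA from both cochleae of 1 mouse. The animals carried no stated transgene or treatment, the adult libraries were titled as controls, and neither strain, sex nor the adults' age was given in the labels. Levels are normalized read counts, that is, reads of a gene divided by 1 size factor per library.

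Oligodendrocytes are the myelinating glia of the brain and spinal cord. They arise from progenitors that carry Olig1 and Olig2, leave the cell cycle, and then switch on the genes of the myelin sheath in steps. In the auditory nerve they wrap only the central stretch of each axon, towards the brainstem, and Schwann cells wrap the peripheral stretch within the cochlea, so the amount of oligodendrocyte RNA in a dissected nerve depends on how much of the central stretch is in it. In bulk RNA, fewer cells of a type and less RNA per cell cannot be told apart.

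The promoters of 3 of the 9 genes, chosen because their calls between ages differed, are shown from 250 bases before the gene's start up to the base before it, 5′ to 3′ on the gene's strand. The sequences are RefSeq's on build GRCm38.p6. Mobp (chr9:120149492-120149741, plus strand) rose with Mog between P3 and P7. Klk6 (chr7:43824294-43824543, plus strand) rose at P7 and again at P14. Olig2 (chr16:91225300-91225549, plus strand) passed the test in none of the comparisons of 2 ages. Capitals mark the hexamers ACAAAG and ACAATG on either strand (CTTTGT and CATTGT on the other), the core letters bound by SOX factors in general.
Mobp: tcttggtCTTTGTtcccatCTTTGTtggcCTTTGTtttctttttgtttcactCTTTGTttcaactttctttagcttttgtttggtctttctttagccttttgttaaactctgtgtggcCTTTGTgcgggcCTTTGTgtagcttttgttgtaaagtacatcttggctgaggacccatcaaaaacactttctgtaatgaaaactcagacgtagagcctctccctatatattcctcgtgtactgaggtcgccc
Klk6: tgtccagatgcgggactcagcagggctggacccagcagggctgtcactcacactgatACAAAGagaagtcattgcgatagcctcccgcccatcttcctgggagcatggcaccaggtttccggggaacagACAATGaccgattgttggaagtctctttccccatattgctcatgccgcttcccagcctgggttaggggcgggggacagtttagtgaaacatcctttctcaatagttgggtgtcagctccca
Olig2: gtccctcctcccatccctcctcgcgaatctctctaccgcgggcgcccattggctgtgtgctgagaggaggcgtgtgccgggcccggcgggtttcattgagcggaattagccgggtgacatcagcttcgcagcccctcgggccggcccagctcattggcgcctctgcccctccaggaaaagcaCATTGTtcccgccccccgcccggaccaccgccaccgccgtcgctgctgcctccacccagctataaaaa
The Mobp window held 6 copies of ACAAAG, the most of any of 32817 promoter windows in the RefSeq table, and no ACAATG. The Klk6 window shown held 1 of each, and the Olig2 window held 1 ACAATG. A window at another Klk6 start (chr7:43825200-43825449, plus strand, not shown) held neither. For comparison, 16.5% of all windows held ACAAAG and 10.7% held ACAATG. Promoters were found for 8 of the 9 genes; Opalin's window held 1 ACAAAG, Ermn's held 1 ACAATG, and those of Mog, Nkx6-2 and Aspa held neither. These hexamers were chosen with the sequences in view and are a description of letters only.

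Between 35250155 and 42258738 reads were recovered per library, so that 3 reads, taken as the floor of detection, corresponded to a normalized count between 2.53 and 3.65. The tissue matched its label: genes of peripheral myelin and Schwann cells summed to between 140065 and 724990 normalized counts, and markers of spiral ganglion neurons, the neurons of this nerve, summed to between 65179 and 558027 normalized counts. Genes listed for astrocytes were read at each age and summed to between 34750 and 99209 normalized counts. Single genes can make up much of this sum, as Fam107a did with 12698 of 40195 in P14 replicate 1. Whether the sum came from central glia was not tested. By the Y-linked gene Eif2s3y, at most 26.7 normalized counts in adult replicate 3, P21 replicates 1 and 2 and P14 replicate 1 and at least 1576 elsewhere, 4 libraries had the female pattern, so sex goes partly with age after P7.

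Genes of the myelin sheath came first. Mog encodes myelin oligodendrocyte glycoprotein, a protein of the outermost face of central myelin (mm10 chromosome 17, 37010740 to 37023398, minus strand). Mog stood at 147, 31.3 and 60.3 normalized counts at P3, at 1785, 2832 and 517 at P7, at 432, 1484 and 7532 at P14, at 1222, 4026 and 608 at P21, and at 1589, 1084 and 995 in adults. The 3 P3 libraries lay below every later library, and the P14 libraries alone spanned more than the P7, P21 and adult libraries together. Mobp encodes a small basic protein of compact central myelin (chromosome 9, 120149742 to 120176091). Mobp stood at 594, 155 and 186 at P3, at 3757, 6292 and 997 at P7, at 850, 3404 and 13081 at P14, at 2509, 5248 and 2190 at P21, and at 4858, 3322 and 3189 in adults.

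Ermn encodes ermin, a cytoskeletal protein of the outer cytoplasmic lip of the myelin sheath (chromosome 2, 58045115 to 58052752, minus strand). Its normalized counts were 56.5, 12.3 and 25.4 at P3, 428, 718 and 132 at P7, 187, 861 and 2879 at P14, 561, 2079 and 414 at P21, and 1280, 949 and 986 in adults. Ermn thus shared the low P3 libraries with Mog, and its adult libraries stood above every P7 library and above 2 of the 3 libraries at P14 and at P21. Its exons overlap those of Galnt5 on the other strand, and the use of strand in counting was not stated. Opalin, a transmembrane glycoprotein of oligodendrocytes (chromosome 19, 41063420 to 41077113, minus strand), had the fewest reads of the 9 from P14 on. Opalin stood at 1.69, 2.85 and 0.942 at P3, at or below the floor, at 56.0, 64.9 and 6.57 at P7, at 11.4, 46.9 and 281 at P14, at 25.3, 42.2 and 5.87 at P21, and at 36.4, 6.56 and 3.65 in adults. In adults it rested on 44 reads over the 3 libraries.

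Klk6, a secreted serine protease of the kallikrein family made by mature oligodendrocytes (chromosome 7, 43824544 to 43832027), was at or below the floor at P3. Klk6 stood at 0, 2.85 and 0 normalized counts at P3, at 9.04, 23.2 and 4.70 at P7, at 48.6, 194 and 664 at P14, at 534, 1928 and 277 at P21, and at 1429, 1020.5 and 1056 in adults. The P3 values came from 3 reads in 1 library, and a count of 0 there allows up to 2.53 and 2.83. The P7 libraries lay above all P3 libraries and the P14 libraries above all P7 libraries, whereas the P14, P21 and adult libraries overlapped at each step.

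Among the transcription factors, Olig1 and Olig2 are basic helix-loop-helix proteins of the oligodendrocyte lineage, and Olig2 is needed for the lineage to form. Olig1 (chromosome 16, 91269769 to 91271939) stood at 1544, 533 and 1042 normalized counts at P3, at 2133, 2719 and 558 at P7, at 134, 538 and 2212 at P14, at 311, 860.5 and 257 at P21, and at 640.0, 487 and 470.3 in adults. Olig2 (chromosome 16, 91225550 to 91228677) stood at 445, 187 and 302 at P3, at 734, 913 and 196 at P7, at 42.4, 149 and 665 at P14, at 72.0, 191 and 57.7 at P21, and at 136, 116 and 98.4 in adults. Both were well above the floor at P3, when Mog, Ermn, Opalin and Klk6 were at their lowest, and the adult Olig2 libraries lay below every P3 library. Exons of Olig1 overlap those of Gm15966 on the other strand.

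Nkx6-2, a homeodomain factor of differentiating oligodendrocytes (chromosome 7, 139579376 to 139582797, minus strand), followed the myelin genes instead. Its normalized counts were 24.4, 4.75 and 4.71 at P3, 115, 150.1 and 28.2 at P7, 22.7, 88.8 and 361 at P14, 76.7, 329 and 59.7 at P21, and 171, 154 and 147 in adults. Aspa encodes aspartoacylase, the enzyme that splits N-acetylaspartate into acetate and aspartate (chromosome 11, 73304988 to 73324637, minus strand). Aspa stood at 499, 478 and 524 at P3, at 998, 1174 and 1030.2 at P7, at 741, 811 and 1347 at P14, at 977, 1612 and 910 at P21, and at 1033, 982 and 944 in adults. Its P3 libraries lay below all later ones, and its libraries of an age lay closer together than those of the other 8 genes from P3 to P21.

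**Figure D1:**
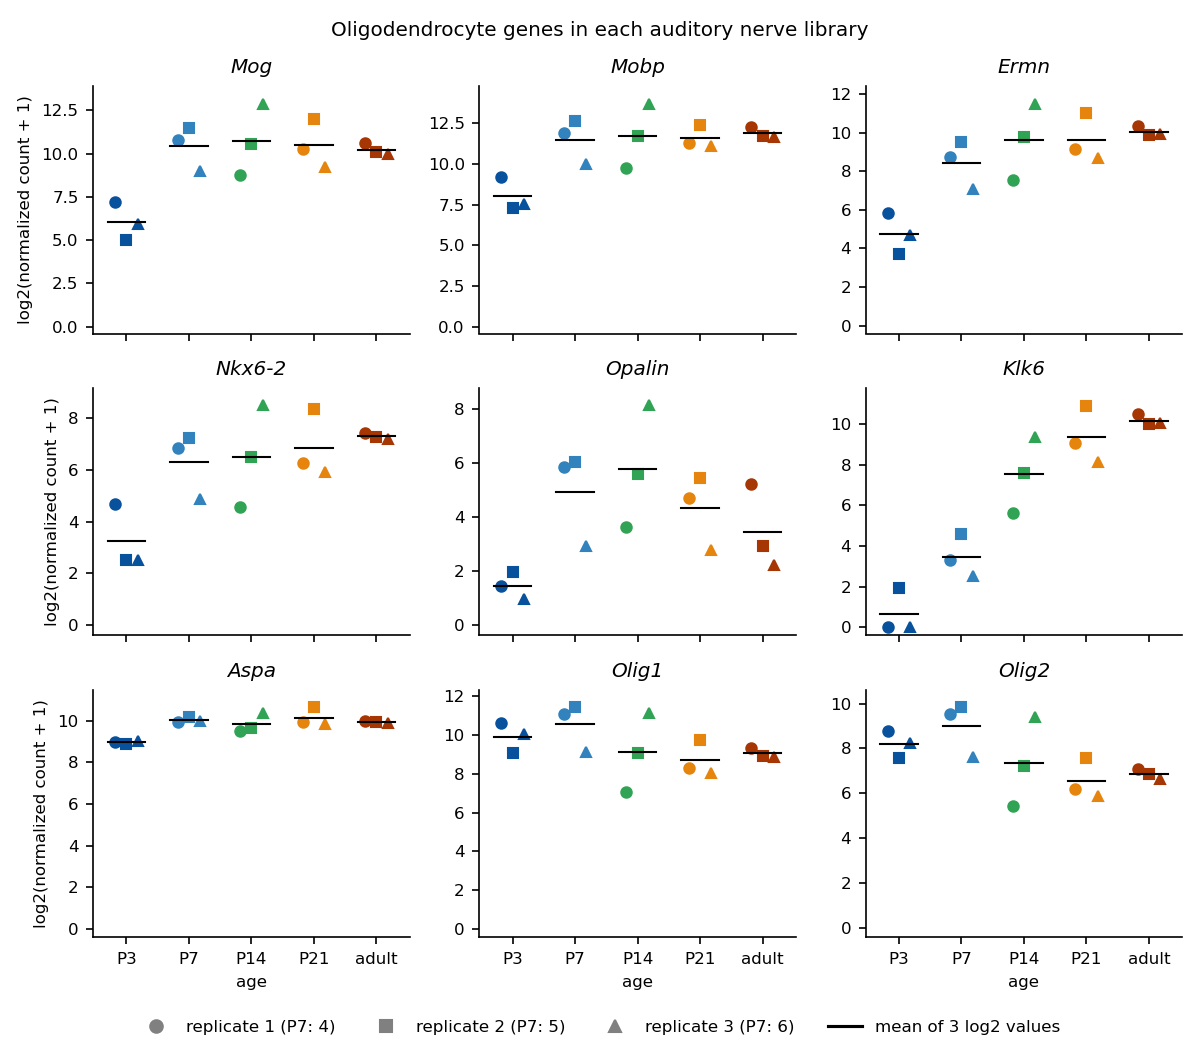
Level of the 9 genes in each of the 15 libraries as log2(normalized count + 1) by age, with 1 symbol per replicate and a line at the mean of the 3 log2 values. For every gene the P14 libraries run in 1 order, with replicate 3 highest (Mog 7532 normalized counts) and replicate 1 lowest (Mog 432), and every P14 library of Klk6 lies above every P7 library.

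Lengths were those of GENCODE M21 union exons, whose outer ends matched both deposited gene bounds for Nkx6-2 alone. Mobp, for instance, ended at 120176091 in the deposited values and at 120181484 in GENCODE, so the order holds for these lengths only. Per kilobase of exon, adult Mobp stood at 808 ± 198 normalized counts (SD, n = 3), Klk6 at 772 ± 149, Mog at 718 ± 188 and Aspa at 530 ± 24.0. Ermn at 295 ± 49.9 and Olig1 at 246 ± 43.3 followed. Nkx6-2 at 121 ± 9.32, Olig2 at 46.2 ± 7.49 and Opalin at 8.45 ± 9.86 came last. Mobp, Klk6 and Mog did not differ beyond their spread, nor did Ermn and Olig1. By these lengths, RNA of the protease Klk6 stood near that of the myelin genes Mobp and Mog in adults, and above that of Ermn and Opalin.

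Libraries of an age differed far more in 8 of the 9 genes than in most genes. The SD of log2(normalized count + 1) within ages was 1.35 for Mog, 1.22 for Mobp, 1.28 for Ermn, 1.60 for Opalin, 1.26 for Klk6, 1.19 for Olig1, 1.15 for Olig2 and 1.32 for Nkx6-2. Between 97.9% and 99.5% of tested genes had a smaller spread than each of these, and the median over all genes was 0.177. Aspa was the exception with 0.297, larger than 71.2% of genes. Within P14, the highest library exceeded the lowest 17.4-fold for Mog, 15.7-fold for Olig2 and 1.82-fold for Aspa.

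The same library was high or low for nearly all 9 genes. P7 replicate 5 was the highest P7 library for 9 of 9 genes, P14 replicate 3 for 9 of 9, P21 replicate 2 for 9 of 9 and adult replicate 1 for 9 of 9. Of all tested genes, these libraries were the highest of their age for 35.7%, 34.8%, 41.8% and 33.1%. P14 replicate 1 and P21 replicate 3 were the lowest for 9 of 9 genes, and P7 replicate 6 for 8, with Aspa the exception. At P3 the order was looser, with replicate 1 highest for 6 genes and replicate 2 lowest for 6.

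Most astrocyte genes followed the 9 closely between libraries of an age, and no Schwann cell gene did. Gfap, the intermediate filament of astrocytes, stood at 2010, 4966 and 24214 normalized counts in P14 replicates 1, 2 and 3, the order that Mog had. The deviations of a gene from its age means were correlated with the mean deviation of the 9 over the 15 libraries, as a description with no test. Pearson's r was above 0.8 for 11 of 17 astrocyte genes, 16 of 29 other genes of mature oligodendrocytes and 0 of 16 Schwann cell genes, against 1.60% of all genes. The median r was 0.815 for the astrocyte genes, 0.673 for 12 genes of central neurons, 0.444 for 10 microglial genes, -0.52 for the Schwann cell genes and -0.16 for 12 genes of spiral ganglion neurons. No astrocyte gene was at 0 in all 3 libraries of any age. The amount of central tissue in each dissection was not measured, and its part in the differences between ages was not tested. The fit with Mog as a covariate, given below, cannot test it, since Mog is itself a gene of this group and P3 is left out.

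**Figure D2:**
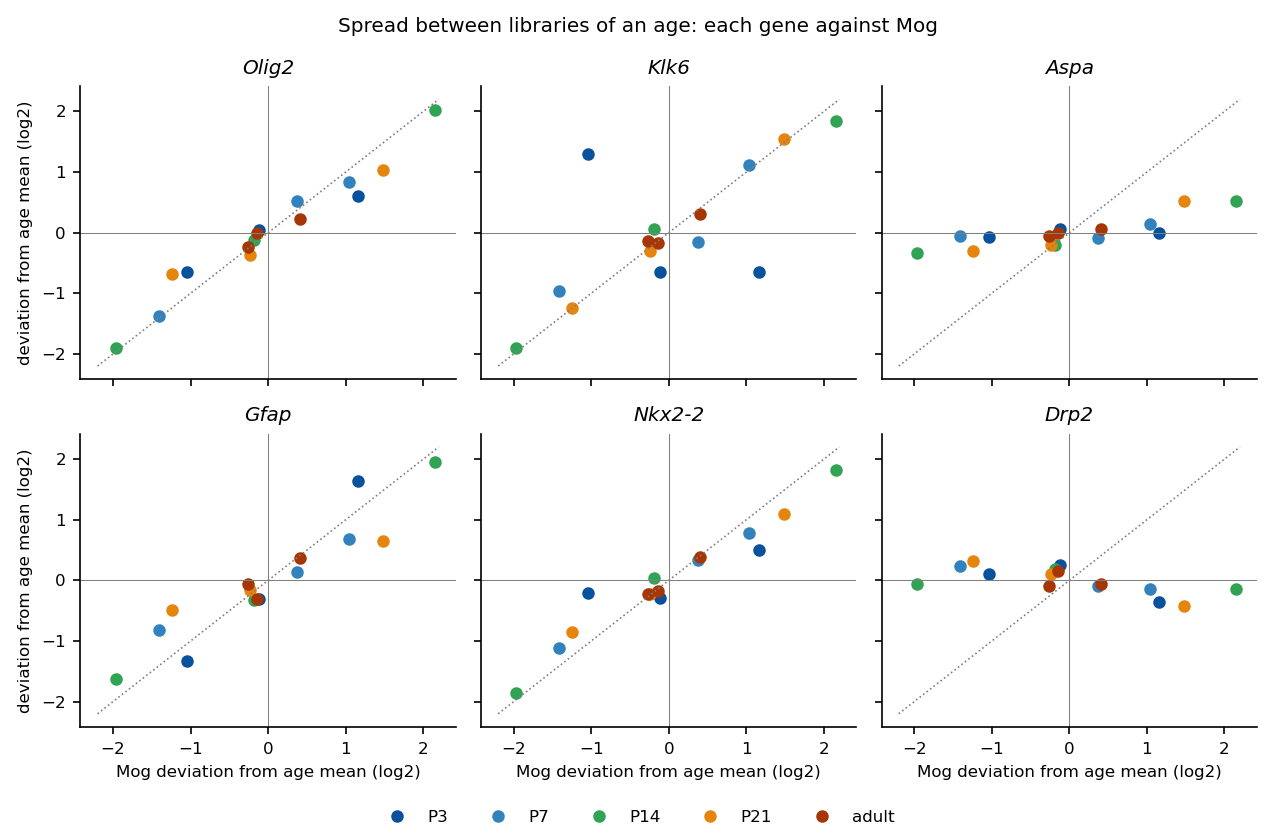
Deviation of Olig2, Klk6, Aspa, Gfap, Nkx2-2 and Drp2, a Schwann cell gene, from their age mean (vertical, log2 normalized count) against that of Mog (horizontal, log2), 1 point per library, coloured by age, with a dotted line where both are equal. Olig2, Nkx2-2 and Gfap rise with Mog, and Klk6 does so except at P3 where it rests on 3 reads. Some points leave the line. Gfap spans 2.19-fold at P21 where Mog spans 6.63-fold, and Nkx2-2 spans 1.73-fold at P3 where Mog spans 4.71-fold. Aspa rises with Mog on a shallow slope (0.206 ± 0.040, SE, from P7 on), and Drp2 does not follow Mog.

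At P7 compared with P3, 7 of the 9 rose and 0 fell, against 15.4% that rose and 12.8% that fell among 16723 tested genes (limma, Benjamini-Hochberg adjusted p under 0.05). Mog rose by 4.37 ± 0.96 on the log2(normalized count + 1) scale (SE, limma adjusted p = 0.00515), Ermn by 3.66 ± 0.91 (0.00997) and Mobp by 3.47 ± 0.87 (0.0104). Nkx6-2 rose by 3.09 ± 0.95 (0.0288) and Aspa by 1.09 ± 0.22 (0.00291). Opalin rose by 3.49 ± 1.16 (0.0396) and Klk6 by 2.83 ± 0.91 (0.0339), both against P3 libraries at or below the floor. As a ratio of summed reads, Opalin was 23.4-fold higher at P7 (95% exact interval 10.5 to 64.8, from 136 against 6 reads) and Klk6 13.4-fold (4.26 to 67.8, from 39 against 3 reads), where the intervals cover counting error only. The P7 libraries of these 7 genes lay above all P3 libraries, as did those of 26.8% of tested genes.

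The pair of transcription factors that mark the whole lineage did not pass the test at P7. Olig1 differed by 0.64 ± 0.85 (limma adjusted p = 0.61) and Olig2 by 0.79 ± 0.82 (0.503), with P7 and P3 libraries overlapping. The median log2 fold change of the 9 was 3.09, against -0.02 over all genes. The astrocyte genes, 11 of 17 of which followed the 9 closely within ages, summed to between 39435 and 66865 normalized counts at P7 and between 34750 and 54985 at P3. Of the 17, Fam107a rose by 0.97 ± 0.21 and Fgfr3 fell by 0.64 ± 0.18 on the log2 scale (limma adjusted p = 0.00439 and 0.0182), neither of them among those 11, and Gfap differed by 1.71 ± 0.82 (0.136). The count of 7 fell to 3 without P7 replicate 5, and to 4 without P7 replicate 4 or without P3 replicate 3. Opalin, Klk6, Nkx6-2 and Mobp were the genes lost without P7 replicate 5, and limma-voom on recovered reads called 2 of the 9.

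P14 was compared with P7 across the second week, which spans the onset of hearing in mice. Of the 9, 1 rose and 0 fell, against 24.3% of tested genes that rose and 23.8% that fell. Klk6 rose by 4.06 ± 0.91 on the log2 scale (limma adjusted p = 0.00238), with every P14 library above every P7 library, as in 30.3% of tested genes. Olig2 differed by -1.64 ± 0.82 (0.118) and Olig1 by -1.44 ± 0.85 (0.182). Ermn differed by 1.17 ± 0.91 (0.312), and Mog, Mobp, Nkx6-2, Opalin and Aspa had adjusted p between 0.495 and 0.881. The count was 2 without P14 replicate 1, where Ermn was called as well, or without P7 replicate 6, where Olig2 was. It was 3 without P14 replicate 3, the P14 library with the highest level of all 9. Olig1 and Olig2 then fell by 2.45 (adjusted p = 0.0181) and 2.66 (0.00846) on the log2 scale.

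P21 compared with P14, and adults with P21, gave 0 calls among the 9, against 9.29% and 49.4% of tested genes called in either direction. At an unadjusted p under 0.05 limma counted 0 of the 9 in both comparisons, and 0 were called by edgeR, by DESeq2 or by limma-voom, run on the reads recovered from the values. The smallest unadjusted p was that of Klk6 in both, with a log2 difference of 1.83 ± 0.91 between P21 and P14 (limma adjusted p = 0.229) and of 0.81 ± 0.91 between adults and P21 (0.482). Standard errors were 0.22 for Aspa and between 0.82 and 1.16 for the other 8, and the 1.83 of Klk6 did not pass at this spread between libraries.

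Over the whole span, adults compared with P3, 6 of the 9 rose and 0 fell, against 34.4% of tested genes that rose and 34.3% that fell. Klk6 rose by 9.53 ± 0.91 on the log2 scale (limma adjusted p = 6.14e-07). By summed reads it was 1295-fold higher in adults, from 3175 against 3 reads, with an exact 95% interval of 443 to 6284. Ermn rose by 5.29 ± 0.91 (0.000163), Mog by 4.17 ± 0.96 (0.00167), Nkx6-2 by 4.07 ± 0.95 (0.00186), Mobp by 3.84 ± 0.87 (0.00143) and Aspa by 0.98 ± 0.22 (0.00128). Opalin at 2.01 ± 1.16 (0.139), Olig1 at -0.85 ± 0.85 (0.389) and Olig2 at -1.33 ± 0.82 (0.166) did not pass, although every adult Olig2 library lay below every P3 library, as in 37.8% of tested genes. For the 7 genes other than Olig1 and Olig2 every adult library lay above every P3 library, as in 38.5% of tested genes. For Opalin this rested on the size factors. Its adult replicate 3 (3.65 normalized counts) and P3 replicate 2 (2.85) both held 3 reads, the floor. Over the 5 ages jointly, 7 of the 9 differed, with Olig1 (limma adjusted p = 0.256) and Olig2 (0.0697) the exceptions, against 85.4% of tested genes.

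**Figure D3:**
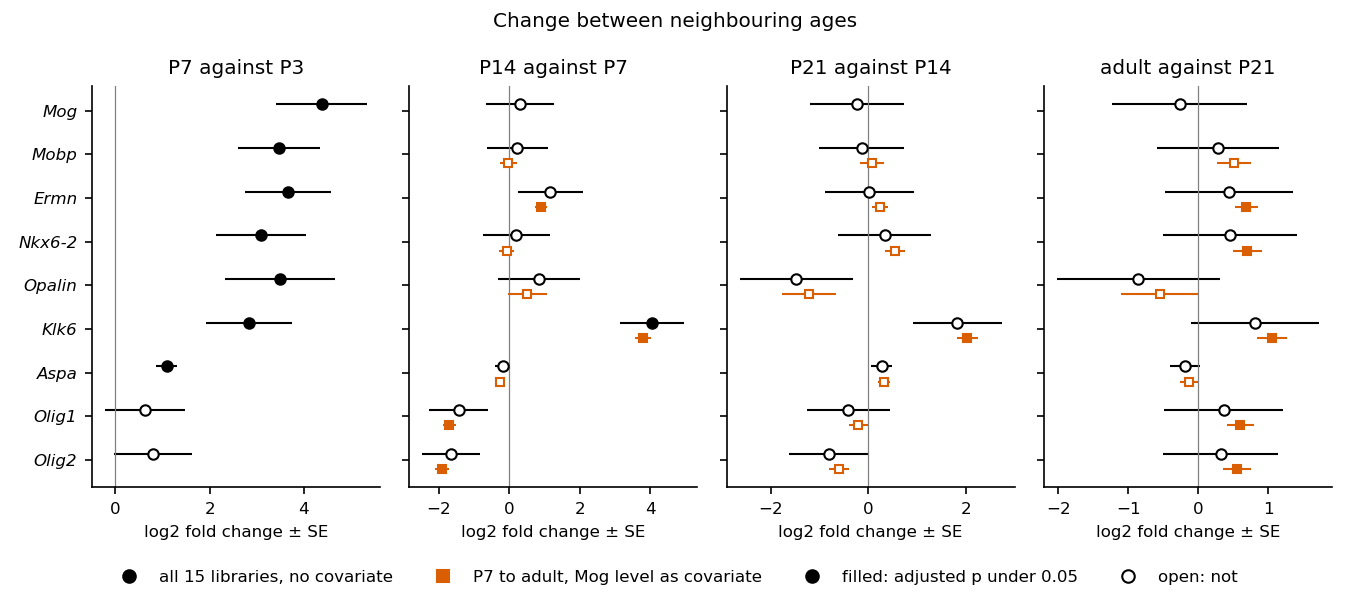
Log2 fold change of each gene (horizontal, later over earlier age, bars 1 SE) between neighbouring ages, in the limma fit of all 15 libraries (black circles) and in a fit of P7 to adult with the log2 Mog level as a covariate (orange squares), filled where the adjusted p was under 0.05. Without the covariate 7 genes are filled for P7 against P3 and Klk6 alone for P14 against P7; with it, Klk6 is filled at all 3 later steps and Olig1 and Olig2 are filled below 0 at P14.

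Since the 9 genes varied together between mice of 1 age, each was also read against Mog in the same library. Per 100 Mog reads, Klk6 counted 0.506, 0.821 and 0.907 reads at P7, 11.2, 13.1 and 8.82 at P14, 43.7, 47.9 and 45.6 at P21, and 89.9, 94.1 and 106 in adults. The libraries of each age lay above all libraries of the age before, and the P14 libraries, which spanned 17.4-fold in Mog, ranged from 8.82 to 13.1 in this ratio. At P3 the ratio was 0 in replicates 1 and 3 and 9.09 in replicate 2, where it rested on 3 Klk6 reads.

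Olig2 ran the other way. It counted 302, 597 and 502 reads per 100 Mog reads at P3, 41.1, 32.3 and 37.9 at P7, 9.81, 10.04 and 8.83 at P14, 5.90, 4.75 and 9.50 at P21, and 8.58, 10.7 and 9.89 in adults. Each of the 2 steps up to P14 lowered it without overlap, and from P14 on the ages overlapped. Olig1 followed the same course, between 1047 and 1730 reads per 100 Mog reads at P3, 96.0 and 119 at P7, 29.4 and 36.2 at P14, 21.4 and 42.4 at P21, and 40.3 and 47.3 in adults.

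Ermn, another gene of the myelin sheath, was highest relative to Mog in adults. It counted between 38.3 and 42.2 reads per 100 Mog reads at P3, 24.0 and 25.6 at P7, 38.2 and 58.0 at P14, 45.9 and 68.1 at P21, and 80.6 and 99.0 in adults. Mobp counted between 309 and 494 at P3, 193 and 222 at P7, 174 and 229 at P14, 130 and 360 at P21 and 306 and 320 in adults. Nkx6-2 counted between 7.81 and 16.6 at P3, 5.30 and 6.43 at P7, 4.79 and 5.98 at P14, 6.28 and 9.82 at P21, and 10.7 and 14.8 in adults. Aspa gave no steady ratio within an age, for instance between 17.9 and 172 at P14.

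**Figure D4:**
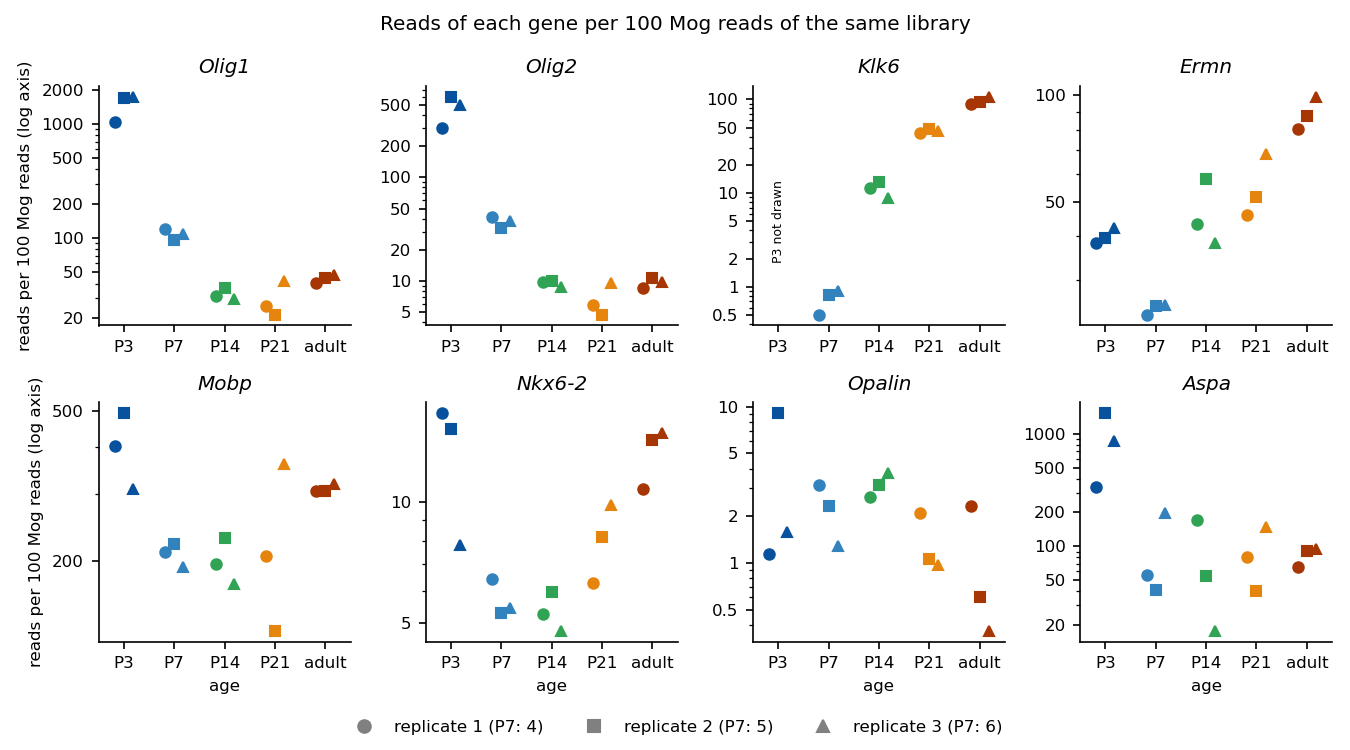
Reads of 8 genes per 100 Mog reads of the same library (vertical, log axis) by age, 1 symbol per replicate. Klk6 climbs at every step from P7 (below 1) to adults (89.9 to 106), Olig1 and Olig2 drop from P3 to P14, Ermn is highest in adults, and Aspa scatters within ages; the P3 values of Klk6, from 3 reads, are not drawn.

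A fit of the 12 libraries from P7 on with log2(Mog + 1) as a covariate, added after the data were seen, tested those shifts over 16490 genes. P3 was left out because no P3 library reached the Mog level of any other age. Between libraries of an age, log2 levels moved by 0.931 ± 0.050 per unit of log2 Mog for Ermn, 0.944 ± 0.064 for Nkx6-2, 0.903 ± 0.066 for Klk6, 0.891 ± 0.057 for Olig1, 0.871 ± 0.061 for Olig2 and 0.863 ± 0.076 for Mobp (SE). Opalin moved by 1.16 ± 0.17 and Aspa by 0.206 ± 0.040. The standard errors of the fold changes shrank to between 0.131 and 0.556 at P14 against P7.

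With that covariate, P14 against P7 gave 4 calls among the other 8 genes, against 46.6% of tested genes. Klk6 rose by 3.79 ± 0.22 on the log2 scale (limma adjusted p = 4.97e-07) and Ermn by 0.89 ± 0.16 (0.00124), while Olig2 fell by 1.90 ± 0.20 (3.26e-05) and Olig1 by 1.71 ± 0.19 (4.46e-05). P21 against P14 gave 1 call, Klk6 at 2.04 ± 0.22 (0.000853), against 7.39% of genes. Adults against P21 gave 5 calls, all higher, against 47.8% of genes. Klk6 rose by 1.05 ± 0.22 (0.00392), Nkx6-2 by 0.70 ± 0.21 (0.0201), Ermn by 0.68 ± 0.16 (0.00759), Olig1 by 0.60 ± 0.19 (0.0242) and Olig2 by 0.55 ± 0.20 (0.0429). These are changes relative to Mog, which is itself a gene of this group with an uncertain course after P7, and they do not give the direction of a gene's own level.

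Among the genes most like the 9 over all 15 libraries, by Pearson's r with the mean of their standardized log2 values, were Dbndd2 (0.969), Map6d1 (0.965), Tmem125 (0.955), Nipal4 (0.952) and Tmem88b (0.952). S1pr5, Tmeff2, Slain1 and Ppp1r14a followed, down to 0.927. Tmem88b, a transmembrane protein gene, stood at 251, 127 and 174 normalized counts at P3, 869, 1319.9 and 301 at P7, 269, 766 and 2579.8 at P14, 717, 1928 and 464 at P21, and 1748, 1304 and 1371 in adults, with the same high and low libraries at P7, P14 and P21 as Mog. Within ages, the 10 most alike were led by Nkx2-2 (0.997), Tmem88b (0.993) and Wscd1 (0.988). Nkx2-2, a homeodomain factor of oligodendrocyte progenitors, stood at 78.4, 47.5 and 45.2 at P3, 154, 209 and 55.4 at P7, 14.5, 56.1 and 195 at P14, 26.2, 66.8 and 16.6 at P21, and 72.8, 49.2 and 47.4 in adults. Among the 9 themselves, r with the mean of the other 8 within ages was between 0.954 and 0.982 for Mog, Mobp, Ermn, Nkx6-2, Olig1 and Olig2, and 0.851 for Opalin, 0.816 for Aspa and 0.773 for Klk6.

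Other genes of the lineage were counted in the same fit, to be read against the shares of all tested genes. Those shares were 15.4% higher and 12.8% lower at P7 against P3, and 34.4% higher and 34.3% lower in adults against P3. Of 29 tested genes of mature oligodendrocytes outside the 9, 12 rose and 0 fell at P7 against P3 (median log2 fold change 0.86), and 18 rose and 2 fell in adults against P3 (median 1.07). Not all of that list followed the 9 between libraries. Trf (transferrin) and Apod (apolipoprotein D) rose by 4.72 ± 0.26 and 3.53 ± 0.19 in adults against P3 on the log2 scale (limma adjusted p = 3.17e-09 and 2.60e-09), and their r with the 9 within ages was 0.270 and -0.35. Of 13 genes of progenitors, 1 rose and 2 fell at P7 against P3 and 1 rose and 5 fell in adults against P3. Matn4, an extracellular matrix protein, fell by 4.25 ± 0.23 in adults against P3 (limma adjusted p = 2.51e-09), and Sox6, a transcription factor of progenitors, by 1.45 ± 0.20 (1.85e-05). Lhfpl3 of the same list went the other way, from a mean of 554 normalized counts at P3 to 5588 in adults. Their r with the 9 within ages was 0.503 for Matn4, 0.748 for Sox6 and 0.263 for Lhfpl3. Of 12 genes of newly formed oligodendrocytes, 4 rose and 2 fell at P7 against P3, and 3 rose and 6 fell in adults against P3.

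Myelin genes shared by oligodendrocytes and Schwann cells were counted as well. Of these 15, all rose at P7 against P3 and 11 rose and 0 fell in adults against P3, but 5 fell and 0 rose at P21 against P14. Among all tested genes, 15.4% rose at P7 against P3 and 34.4% rose in adults against P3. At P21 against P14, 9.29% were called in either direction. Their median r with the 9 within ages was 0.298, and 3 of the 15 were above 0.8, Mag (0.847) and Mbp (0.804) among them. Pllp, a proteolipid of myelin, rose by 1.70 ± 0.13 at P7 against P3 (limma adjusted p = 3.61e-06) and fell by 0.58 ± 0.13 at P21 against P14 (0.0169). The Schwann cell list summed to between 258169 and 278453 normalized counts in adults and 140065 and 239032 at P3, against sums of the 9 of 7890 to 11173 in adults and 1407 to 3312 at P3.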

How the data were processed

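Per the labels' protocols, the auditory nerve was microdissected from the cochlea and pooled over both ears of a mouse. Its total RNA was purified on miRNeasy Mini columns, degraded samples were discarded, and TruSeq libraries followed. Per the submitters' processing notes, Partek, TopHat2 and DESeq2 were used on build mm10; annotation, counting settings and use of strand are not given in the sources used here. The deposited signal was read from the values as counts of reads scaled by 1 factor in each library: dividing each library by its smallest step gave whole reads, within a tolerance of 0.1 reads, for 99.94% of the positive values.

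All 15 libraries entered 1 limma fit (3.58.1, R 4.3.3; trend and robust empirical Bayes) of log2(value + 1), without covariates, which left 10 residual degrees of freedom. The design named edgeR for read counts; limma was used because the values are normalized. A gene was tested if 3 or more libraries held a value of 10 or more, which 16723 of 18536 did, and p-values were adjusted by Benjamini-Hochberg over all of them (two-sided, threshold 0.05). The 9 genes and the marker lists were chosen with earlier results of these data known, so their counts are descriptions. Named genes were the 9, up to 4 per list with the smallest adjusted p over the ages, defining markers of each cell type, and the 10 most like the 9 by each measure; others named for a value of r or a ratio were chosen after their values were seen. Some genes that this rule allows are not reported here. Alternatives were quantile and TMM scaling, no filter or a filter of 50, pseudocounts of 0.1 and 10, only the ages compared, DESeq2 (1.42.0), edgeR (4.0.16) and limma-voom run on recovered reads, leaving out each library in turn, the 4 libraries low in Eif2s3y left out and a replicate block. The fit was tested on simulated counts with independent libraries and 1 dispersion for all genes. That simulation does not cover genes that spread as widely, and together, between libraries as most of the 9 did. Reads carry no molecular identifiers, so intervals and floors cover counting error only. No 2 libraries agreed within sampling noise.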

Additional observations from a re-analysis of the deposited data

How the results depend on the processing

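Members called in the fit of all 15 libraries without a covariate kept their direction under every alternative run. Members called (limma, adjusted p under 0.05) numbered 7 at P7 against P3, 4 with a pseudocount of 10 and 2 with limma-voom. At P14 against P7 they numbered 1, 0 with limma-voom, 2 without the libraries low in Eif2s3y and 4 with log2 Mog as a covariate. With that covariate, added after the data were seen, 1 was called at P21 against P14 and 5 in adults against P21, both 0 without it. In the fit without the covariate, the log2 change of Klk6 at P21 against P14 was 1.83. It was -0.37 without the libraries low in Eif2s3y, which leaves only replicate 3 at P21. The covariate fit was not run without those libraries. Over the 5 ages 7 were called, and 2 with limma-voom. Of all genes, 1553 were called at P21 against P14, 147 with only the ages compared, 2519 with DESeq2, 760 without the libraries low in Eif2s3y and 650 with the replicate block; 8266 were called in adults against P21, 5321 with only the ages compared and 3989 without those libraries. Leaving out 1 library gave 3 to 7 members at P7 against P3, 1 to 3 at P14 against P7, 0 at P21 against P14 and in adults against P21, 6 in adults against P3, and 5 (without P3 replicate 2 or 3) to 9 (without P14 replicate 3) over the 5 ages. For all genes the ranges were 3075 to 6352, 6738 to 9169, 632 (without P14 replicate 3) to 1968, 6773 to 8515, 10603 to 12193 and 13607 to 14460. The cause of these shifts was not tested.

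Replicate numbers gave no sign of pairing between samples. Libraries with the same number had correlations of their deviations between -0.23 and 0.32 (median 0.034). Those with different numbers had correlations between -0.37 and 0.39 (median -0.015). Whether a number marked a shared litter or day was not stated. With the replicate block over P3, P14, P21 and adults, 0, 0, 6 and 7 members were called at P21 against P14, in adults against P21, in adults against P3 and over the ages, as without it; P7 shares no numbers with the other ages. Among single genes, Klk6 at P7 against P3 had adjusted p from 0.00987 to 0.533 over the alternatives, Opalin from 0.0014 to 0.168, Nkx6-2 from 0.00331 to 0.138 and Mog from 6.73e-05 to 0.105. Klk6 at P14 against P7 ranged up to 0.108 (limma-voom). Depth limits Klk6 and Opalin at P3, which rest on 3 and 6 reads.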

Other observations

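Hapln2, a link protein of the nodes of Ranvier in central axons, was not among the 9 but shared the late course of Klk6 relative to Mog. It counted between 1.63 and 2.38 reads per 100 Mog reads at P7, 10.02 and 17.3 at P14, 22.1 and 41.1 at P21, and 45.9 and 67.8 in adults, with no overlap between neighbouring ages; its r with the 9 within ages was 0.972. Nkx2-2 counted between 7.39 and 10.7 reads per 100 Mog reads at P7, 2.59 and 3.78 at P14, 1.66 and 2.74 at P21, and 4.54 and 4.76 in adults, where the 3 libraries lay closest together. These genes were chosen after their values were seen, and no test was run on the ratios.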
